A study of Mus musculus with 4 samples.

Results

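Ring1B was measured at the promoters of Nkx1 and Nkx6 homeobox genes and of Nkx3-2 in mouse embryonic fibroblasts. Members were taken by gene name in the array files: any name made of Nkx1 or Nkx6 and a number, plus Bapx1, the older name of Nkx3-2. This gave 4 genes, Nkx6-2, Nkx6-1, Nkx1-2 and Bapx1, out of 17649 promoters, and 145 probes out of 474380. Nkx1-1 and Nkx6-3 were not analysed here. All 4 genes lay on the first of a pair of array designs. A Bapx1 probe carried an outlier flag and was left out, so 144 probes were used.

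The groups were embryonic fibroblasts homozygous for the Phc2 L307R allele (Phc2 L307R/L307R) and wild-type embryonic fibroblasts, both C57BL/6, taken at embryonic day 12.5 and used at passage 2. Chromatin was precipitated with a Ring1B antibody, and the immunoprecipitated DNA (Cy5) and the input DNA (Cy3) were amplified with T7 RNA polymerase and hybridised together on 2-colour promoter arrays. There were 4 arrays, 1 for each genotype on each design, and the designs shared 0 probes. Each promoter was therefore read on 1 array per genotype, there was no replicate and no dye swap, and no test was possible. The number of arrays limits the precision of every value below. The arrays of the 2 genotypes were scanned on different days, so scan day and genotype cannot be told apart. How many embryos stand behind each culture is not stated in the labels. Between 97.9% and 99.7% of probes had an immunoprecipitate signal well above background. For the input signal that share was 75% and 76.3% on the Phc2 L307R arrays, against 85.7% and 86.7% on the wild-type arrays. Phc2 itself was not analysed here, and promoter occupancy is no measure of expression, so neither the allele nor the cell type could be checked on the arrays.

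Ring1B is the ubiquitin ligase of Polycomb repressive complex 1, which marks histone H2A and holds developmental genes silent outside the tissues that use them. Phc2 is a Polyhomeotic subunit of that complex. Its SAM domain forms polymers that bring Polycomb complexes together, and the L307R substitution lies in that domain and impairs the polymers. Nkx genes encode homeodomain transcription factors that pattern the ventral neural tube, pancreas and axial skeleton, tissues to which embryonic fibroblasts do not belong. Polycomb complexes in mammals sit mostly at promoters dense in CG dinucleotides.

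The promoters of Nkx6-2 and Nkx6-1 are shown because they are the pair of Nkx6 genes measured and 1 of them, Nkx6-2, was called lower in Phc2 L307R. Each sequence is the RefSeq promoter of GRCm38.p6, 250 bases before the start of the gene and 50 after it, written 5′ to 3′ on the minus strand, with each CG dinucleotide in capitals. The Nkx6-2 sequence lies at chr7:139582748-139583047 and the Nkx6-1 sequence at chr5:101664662-101664961. The labels and file headers name no genome build for the probes, so no probe was placed within these sequences.
Nkx6-2: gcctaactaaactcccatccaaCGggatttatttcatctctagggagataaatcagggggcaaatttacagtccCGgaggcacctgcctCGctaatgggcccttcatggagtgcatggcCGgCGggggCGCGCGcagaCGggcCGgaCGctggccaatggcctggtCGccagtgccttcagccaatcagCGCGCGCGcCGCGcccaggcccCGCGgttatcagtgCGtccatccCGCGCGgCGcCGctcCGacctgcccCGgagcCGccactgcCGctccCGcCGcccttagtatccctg
Nkx6-1: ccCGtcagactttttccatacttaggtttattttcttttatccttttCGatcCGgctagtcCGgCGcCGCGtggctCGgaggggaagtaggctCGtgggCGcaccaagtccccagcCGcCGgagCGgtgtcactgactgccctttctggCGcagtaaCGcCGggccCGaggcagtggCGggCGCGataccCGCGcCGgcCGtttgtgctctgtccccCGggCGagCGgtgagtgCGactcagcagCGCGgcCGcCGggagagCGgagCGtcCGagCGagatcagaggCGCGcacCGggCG
The Nkx6-2 promoter held 32 CG dinucleotides in 300 bases at a GC content of 66.7%, and 9.53% of 32817 RefSeq promoters of that length held as many or more. The Nkx6-1 promoter held 40, a count reached by 3.92% of promoters. The Nkx1-2 promoter held 21 (reached by 24.8%) and the Nkx3-2 promoter 25 (reached by 18.4%). The median over all promoters was 7, so all 4 genes had CG-rich promoters.

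Ring1B enrichment is given as the log2 ratio of immunoprecipitate over input, centred on the median of each array. A promoter is described by its window, which is the set of 3 adjacent probes spanning at most 2000 bp whose mean ratio over both genotypes is highest, and it is called bound where that mean is 1 or more. It is called lower or higher where the window differs by at least 1 (a 2-fold change) with all 3 probes on the same side of 0, among promoters bound in either genotype. Differences are Phc2 L307R minus wild type, and each SD is over the 3 probes of a window, which share their array and their chromatin and are no replicates of a genotype.

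All 4 Nkx promoters were bound in Phc2 L307R fibroblasts and all 4 in wild-type fibroblasts. Over all promoters, 39.3% were bound in Phc2 L307R and 45.4% in wild type. A window of at least 3 was reached by 2 of the 4 genes in Phc2 L307R, Bapx1 and Nkx6-1, and by 3 in wild type, those 2 and Nkx6-2. Such windows made up 1.44% of all promoters in Phc2 L307R and 1.58% in wild type. Of the 4 genes, 1 was called lower in Phc2 L307R, Nkx6-2, and 0 were called higher, against 3.01% lower and 1.64% higher among the 8997 promoters bound in either genotype. Among the 341 promoters at or above 3 in either genotype, a level that 3 of the 4 genes reached, 17.3% were called lower. The median difference over the 4 genes was -0.09, beside -0.05 over all promoters and -0.14 over bound promoters. It moved with the processing, to 0.10 under loess normalization, -0.54 under normexp background correction, -0.79 with windows picked in wild type alone and -0.92 with dim probes left out.

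**Figure D1:**
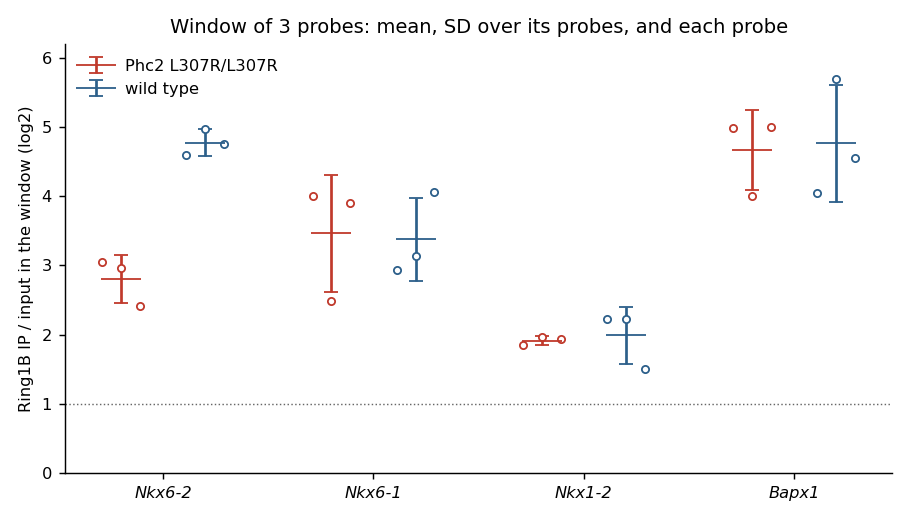
Window means of the 4 Nkx promoters as log2 ratios of Ring1B immunoprecipitate over input (vertical axis), with Phc2 L307R/L307R left of wild type for each gene. Horizontal lines are means, bars the SD over the 3 probes, circles the probes and the dotted line the bound cut-off of 1. At Nkx6-2 the 3 Phc2 L307R probes lie below the 3 wild-type probes, whereas at Nkx6-1, Nkx1-2 and Bapx1 the probes of the genotypes overlap.

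Nkx6-2 encodes a repressor of the ventral neural tube that is later used in interneurons and in myelinating oligodendrocytes. Its window lay at chr7:139435226-139435562 in the coordinates of the files. The 3 probes read 3.05, 2.96 and 2.41 in Phc2 L307R fibroblasts, against 4.59, 4.97 and 4.76 in wild-type fibroblasts. Every Phc2 L307R probe was below every wild-type probe. The window mean was 2.81 (SD 0.35) in Phc2 L307R and 4.77 (SD 0.19) in wild type. The difference was -1.97 (SD 0.41), so that the enrichment in Phc2 L307R was 0.256 of that in wild type. Nkx6-2 ranked 321 of 17649 promoters in Phc2 L307R and 68 in wild type, and its difference was the 6th most negative of all.

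The difference was mainly in the immunoprecipitate signal, while the input differed less and in both directions. The processed immunoprecipitate signals of the 3 probes were 7168, 2504 and 3516 in Phc2 L307R, against 22817, 12178 and 14263 in wild type. The input signals were 906, 337 and 695 in Phc2 L307R, against 1020, 417 and 568 in wild type. The input of the middle probe was not well above background on either array, so its ratios are less certain. With such probes left out, the Nkx6-2 window read 2.62 in Phc2 L307R and 4.74 in wild type, a difference of -2.12 (SD 0.51).

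The Nkx6-2 region covered 7745 bp with 49 probes and held a pair of groups of high Ring1B probes in wild type. They are called peaks here, with no rule for calling peaks behind the word. Between them, the probes from 139433471 to 139433982 read 0.50, 3.20, 4.39 and 1.98 in wild type. Whether the peaks are separate or part of a single broad stretch was not tested. At the peak with the lower coordinates, the 4 probes from 139432903 to 139433356 read 3.97, 1.89, 4.57 and 3.77 in Phc2 L307R, against 4.43, 2.54, 4.72 and 4.68 in wild type. These 4 probes differed by less than 1 each. At the peak with the higher coordinates, which holds the window, 14 consecutive probes were each at least 1 lower in Phc2 L307R. That run went from 139434847 to 139436760, or 1914 bp. Its probes had a median of 2.40 (0.32 to 3.21) in Phc2 L307R and 4.1 (1.74 to 4.97) in wild type, and their differences lay between -2.47 and -1.16 with a median of -1.88. Of the 18359 named regions on the arrays, 1 held a run of that many probes, Nkx6-2 itself, which is 0.00545%. Most of these regions were not broadly enriched, and only 454 held at least 12 consecutive probes at or above 1 in wild type. The share among broadly enriched regions is therefore larger. Counted in base pairs, 6 regions held a run at least as long. The run was described because it was seen in these values, and it is no test.

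Through the run the median processed immunoprecipitate signal was 5732 in Phc2 L307R and 17396 in wild type, and the median input signal was 1559 in Phc2 L307R and 1131 in wild type. Per probe, the Phc2 L307R immunoprecipitate signal was 0.296 of the wild-type one at the median (0.191 to 0.524). The input ratio was 0.993 at the median and varied in both directions (0.625 to 1.46). Over all named probes of the same design the median immunoprecipitate ratio was 0.953 and the median input ratio 0.951. All channels were well above background at 11 of the 14 probes. The plot of signals along Nkx6-2 shows the input traces of the genotypes close together across the run.

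Outside the run the genotypes lay closer. The 18 probes with lower coordinates had a median of 2.37 in Phc2 L307R and 2.84 in wild type, with a median difference of -0.57. Of these, the 8 that reached 3 in wild type had a median of 3.31 in Phc2 L307R and 4.09 in wild type, with a median difference of -0.59 and an immunoprecipitate ratio of 0.566. Of the 8, 1 was at least 1 lower in Phc2 L307R, and all channels were well above background at 5. These 8 were picked by their wild-type value and the run by its differences. Their high wild-type level and the smaller differences outside the run therefore follow in part from that choice. Those from 139434180 on lay in the same wild-type stretch at or above 3 as most of the run. The 17 probes with higher coordinates had a median of 0.37 in Phc2 L307R and 0.43 in wild type. The 4 nearest to the run, up to 139437502, were still above 1 in both genotypes, at 1.5, 1.10, 1.55 and 1.32 in Phc2 L307R, against 1.98, 2.99, 1.81 and 1.68 in wild type. The probe at 139437047 among them was at least 1 lower in Phc2 L307R. In the opposite direction, the probe at 139437731 read 2.67 in Phc2 L307R and 1.02 in wild type on a Phc2 L307R input signal of 124, which was not well above background.

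**Figure D2:**
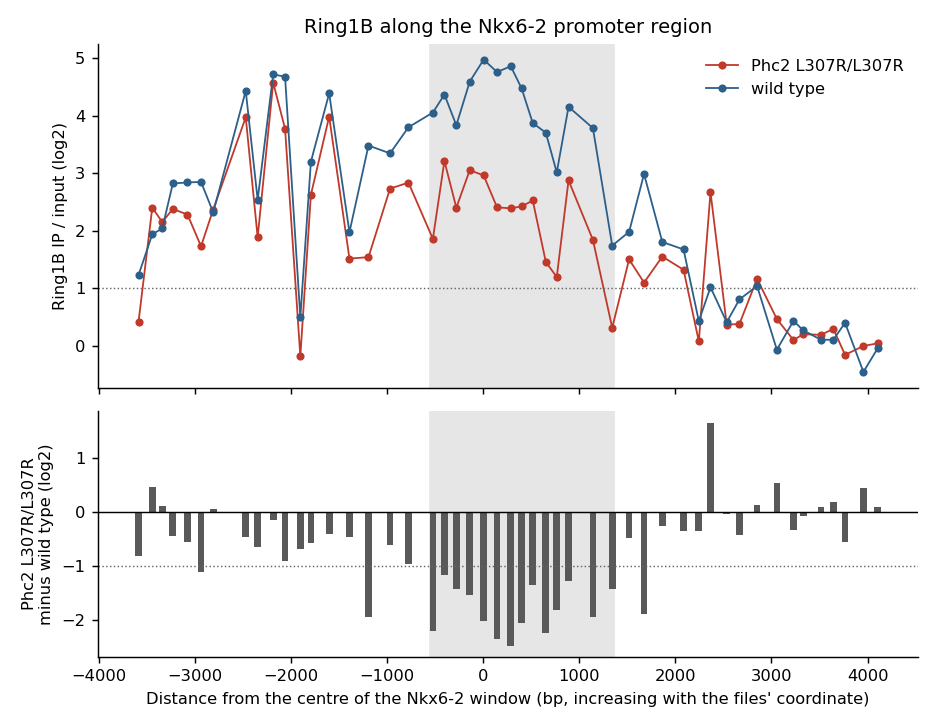
Ring1B along the Nkx6-2 region: log2 ratio of immunoprecipitate over input per probe in Phc2 L307R/L307R and wild type (top) and their difference (bottom), against distance in bp from the centre of the window. Dotted lines mark the cut-offs of 1 and -1, and the grey band marks the run of 14 probes, in which the differences lay between -2.47 and -1.16.

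**Figure D3:**
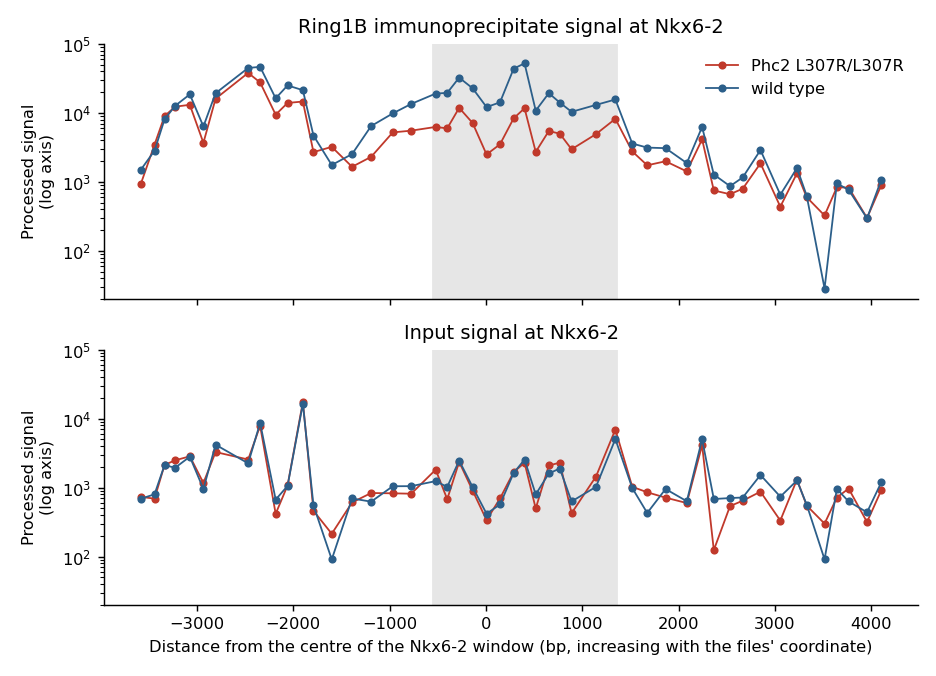
Processed signals of the Ring1B immunoprecipitate (top) and of the input (bottom) at the Nkx6-2 probes, on log axes, for Phc2 L307R/L307R and wild type, against distance in bp from the window centre. In the grey band, the run of 14 probes, the median immunoprecipitate signal was 5732 in Phc2 L307R and 17396 in wild type, while the input traces overlap.

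Fewer consecutive Nkx6-2 probes stood at or above 3 in Phc2 L307R, which follows from the lower values in the run. The longest such stretch in wild type had 16 probes (2380 bp), from 139434180 to 139436559, on the peak with the higher coordinates. In Phc2 L307R it had 2 probes (169 bp), from 139433188 to 139433356, on the other peak. The lengths are therefore of different places. At the lower cut-off of 1, the longest stretch had 19 probes (2979 bp) in Phc2 L307R and 24 probes (3922 bp) in wild type. Of the 49 probes, 6 reached 3 in Phc2 L307R and 21 in wild type, and 35 reached 1 in Phc2 L307R and 37 in wild type. Most of the region was thus at or above 1 in both genotypes, and the difference was mainly in the height of the peak with the higher coordinates.

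Nkx6-1, the closest relative of Nkx6-2 in this set, encodes a factor needed for motor neurons in the ventral spinal cord and for insulin-producing beta cells of the pancreas. The 3 probes of its window, at chr5:101902838-101903228, read 4.0, 2.49 and 3.91 in Phc2 L307R, against 2.93, 3.13 and 4.06 in wild type. The probes of the genotypes overlapped. The window mean was 3.46 (SD 0.85) in Phc2 L307R and 3.38 (SD 0.60) in wild type, and the difference of 0.09 (SD 0.88) was smaller than the spread over the probes. Nkx6-1 ranked 150 in Phc2 L307R and 210 in wild type. The input of 2 of the 3 probes was not well above background in Phc2 L307R, and with such probes left out the difference was 0.06.

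Over the 37 probes of the Nkx6-1 region the median difference was -0.05, and 32 probes reached 1 in each genotype. At least 3 was reached by 12 probes in Phc2 L307R and 7 in wild type, but many of these were not well above background in every channel. The highest in Phc2 L307R, at 101905203, read 4.28 on a dim input signal of 114. Over the region, the input was not well above background at 12 probes in Phc2 L307R and 5 in wild type. In Phc2 L307R, 1 probe was at least 1 lower and 4 were at least 1 higher. Of those 4, 3 were not well above background in every channel, among them the probe at 101908587, where both wild-type signals stood near the floor (94.9 and 94.7) and the ratio was 3.53 in Phc2 L307R and 0.11 in wild type. The longest stretch at or above 1 had 20 probes in both genotypes, 3912 bp in Phc2 L307R and 3923 bp in wild type. It went from 101905203 to 101909114 in Phc2 L307R and from 101904476 to 101908398 in wild type. The lengths are therefore of places that overlap only in part. The Nkx6-1 region thus gave no call, and whether it differed from Nkx6-2 in its response was not tested.

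Nkx3-2, listed as Bapx1, encodes a repressor that promotes cartilage formation in the sclerotome and takes part in spleen and jaw development. Its window, at chr5:42053319-42053894, read 4.99, 4.0 and 5.00 in Phc2 L307R, against 4.05, 5.69 and 4.55 in wild type. The mean was 4.67 (SD 0.57) in Phc2 L307R and 4.76 (SD 0.84) in wild type, and the difference of -0.10 had an SD of 1.4 because the probes disagreed in sign. Only the middle probe, which was 1.69 lower in Phc2 L307R on the log2 scale, was well above background in every channel. The Phc2 L307R input signals of the other probes were 236 and 202 and not well above background, so the Phc2 L307R ratios there are less certain. Without dim probes the window covered 42053436 to 42054696 and read 3.36 in Phc2 L307R and 4.82 in wild type, a difference of -1.46 (SD 0.46) that met the rule for a lower call.

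Across the 40 Bapx1 probes used, 33 (82.5%) were lower in Phc2 L307R, beside 54.6% of all named probes of the design. Most of those named probes were below 1 in both genotypes, so that share is not matched for enrichment. Of window differences, 61.9% were below 0 among promoters bound in either genotype and 65.1% among those at or above 3. Of the 33 Bapx1 probes, 8 were lower by at least 1, and 0 probes were higher by at least 1. The median difference was -0.47, and over the 25 probes above background in every channel it was -0.43. The longest run of probes at least 1 lower had 3 members, from 42054861 to 42055135, with medians of 1.33 in Phc2 L307R and 2.97 in wild type. It lay on the flank of the Bapx1 peak with the higher coordinates. There the longest stretch at or above 1 was broken in Phc2 L307R by the probe at 42054978, which read 0.89. That stretch had 24 probes (4787 bp) in Phc2 L307R and 30 probes (5948 bp) in wild type. Probes beyond the break reached 1 again in Phc2 L307R, and over the region 34 of the 40 probes did so, against 36 in wild type. The stretch at or above 3 had 8 probes (1659 bp) in Phc2 L307R and 9 probes (1873 bp) in wild type.

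Nkx1-2 encodes a factor of the caudal epiblast and tail bud, where cells that give rise to spinal cord and paraxial mesoderm are kept. Its window, at chr7:132436160-132436641, read 1.85, 1.96 and 1.93 in Phc2 L307R, against 2.23, 2.23 and 1.51 in wild type. The mean was 1.91 (SD 0.059) in Phc2 L307R and 1.99 (SD 0.42) in wild type, and the difference of -0.07 (SD 0.44) was smaller than the spread. Its region was the shortest, with 18 probes over 3425 bp. Of these, 15 were lower in Phc2 L307R, 1 of them by at least 1, with a median difference of -0.34. The longest stretch at or above 1 had 5 probes (906 bp) in Phc2 L307R and 12 probes (2238 bp) in wild type. In Phc2 L307R it was bounded by probes that read 0.77 and 0.88, just under the cut-off. Over the region, 12 of the 18 probes reached 1 in Phc2 L307R and 14 in wild type. The input was not well above background at 9 of the 18 probes in Phc2 L307R and at 5 in wild type.

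**Figure D4:**
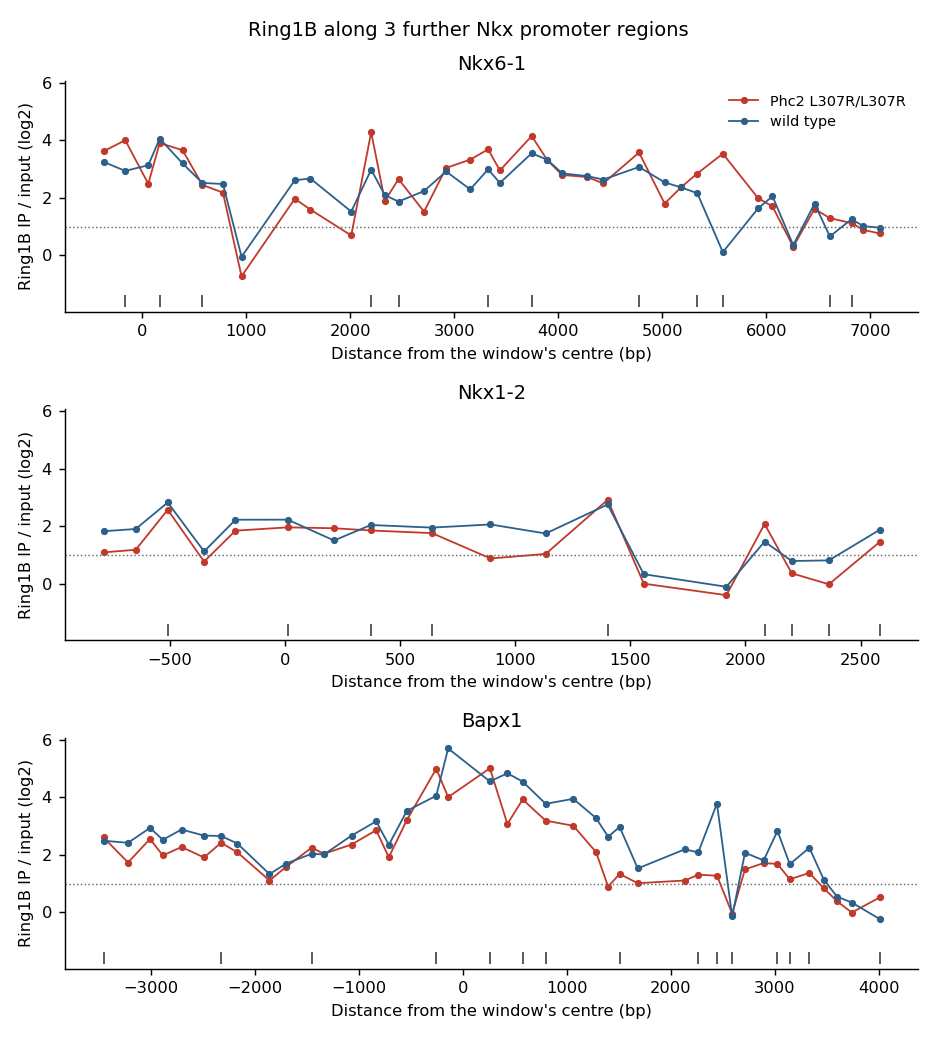
Ring1B along the Nkx6-1, Nkx1-2 and Bapx1 regions, as log2 ratio of immunoprecipitate over input per probe in Phc2 L307R/L307R and wild type, against distance in bp from the centre of each window. Ticks at the bottom mark probes that were not well above background in every channel on both arrays, and the dotted line is the cut-off of 1. The traces run together at Nkx6-1, while 15 of 18 probes at Nkx1-2 and 33 of 40 at Bapx1 were lower in Phc2 L307R. Of all named probes of the design, most of them below 1 in both genotypes, 54.6% were lower, a share not matched for enrichment.

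Among all probes of the 4 genes, 121 reached 1 in either genotype. Of these, 27 (22.3%) were at least 1 lower in Phc2 L307R and 5 (4.13%) at least 1 higher, beside 9.73% lower and 9.09% higher among the 82100 such probes on the arrays. That background pools both designs, while the 4 genes lie on the first. Of all named probes, 8844 of 231885 were at least 1 lower on the first design and 5196 of 230687 on the second. Nkx6-2 held 17 of the 27 and Bapx1 held 8. Neighbouring probes read overlapping DNA fragments, so these counts are of probes and not of independent events.

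In the order of window means, Phc2 L307R fibroblasts had Bapx1 highest, then Nkx6-1, Nkx6-2 and Nkx1-2, whereas wild-type fibroblasts had Nkx6-2 and Bapx1 highest, then Nkx6-1 and Nkx1-2. Different probes measured each gene, so the order is of ratios and not of amounts. In Phc2 L307R, Nkx6-1 and Nkx6-2 differed by less than the SD of Nkx6-1. In wild type, Nkx6-2 and Bapx1 differed by less than the SD of either.

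The deposited value tables gave the same Phc2 L307R values and other wild-type ones. The Phc2 L307R columns correlated with the scanner ratios at 0.999 across the probes of a design, and the wild-type columns at 0.854 and 0.890 across probes. No source used here says what the wild-type columns were made from. In these tables the Nkx6-2 window read 2.81 in Phc2 L307R and 6.36 in wild type, a difference of -3.56. All 4 genes were then called lower, with differences between -3.56 and -1.55, but so were 8.25% of the 8886 promoters bound in either genotype and 73.7% of those at or above 3. Among promoters at or above 3 in the scanner ratios, 17.3% were lower.

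The Nkx6-2 call depended on which of the pair of peaks held the window. With loess normalization, with normexp background correction, or with the window chosen by its height in Phc2 L307R, the window moved to the peak at 139432903 to 139433233, and the difference there was -0.13, -0.65 and -0.42. When the first window was kept, a check chosen after the values were seen, loess gave -1.78, normexp -2.04 and arrays scaled to the same spread -2.15. The Nkx6-2 difference was below 0 in all 12 alternatives and met the rule for a lower call in 8. A kept window was counted only where it differed from the one chosen anew. The 8 include the 2 kept windows, under loess and normexp, which were checked after the values were seen. They also include leaving out ratios of exactly 0, which gave the same Nkx6-2 window and difference as reported. Bapx1 met the rule in 3 of 11, Nkx6-1 in 2 of 12 and Nkx1-2 in 1 of 10.

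**Figure D5:**
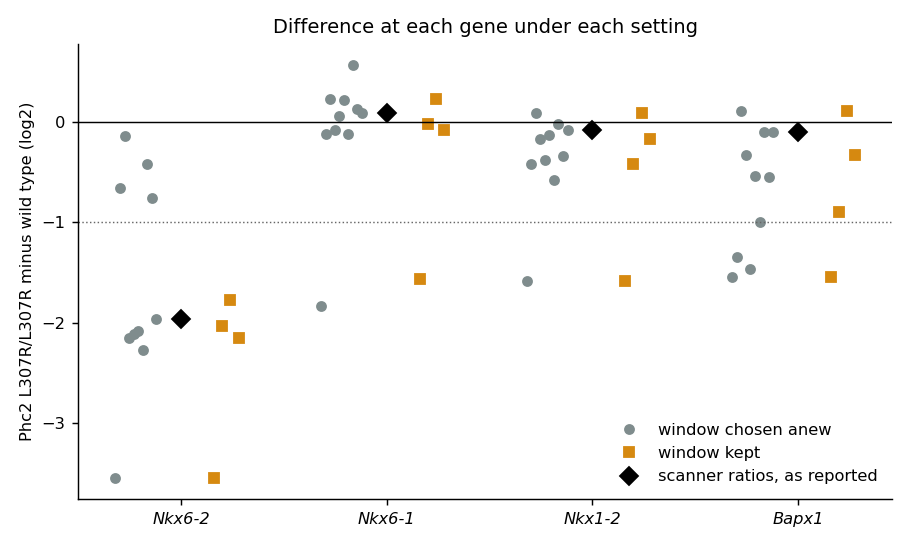
Difference in window mean (Phc2 L307R/L307R minus wild type, log2) for each Nkx gene under each way of processing. Circles are alternatives with the window chosen anew, squares are those with the window kept, and diamonds are the values as reported. Nkx6-2 values fall between -3.56 and -0.13, with those above -1 coming from windows on the other peak or from the mean over all probes.

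The promoters whose pair of window means was nearest to that of Nkx6-2 on the same design were named by distance over the 2 arrays. Barhl1, a homeobox gene of sensory and cerebellar neurons, was nearest at a distance of 0.083, with 2.83 in Phc2 L307R and 4.70 in wild type. Irx3, a homeobox gene of neural tube patterning, followed at 0.731 with 2.98 in Phc2 L307R and 4.07 in wild type. Gad2, which encodes an enzyme of GABA synthesis, stood at 0.772, the zinc finger gene Sall4 at 0.849 and the homeobox gene Dlx5 at 0.896. The nearest promoter to Nkx6-1 was Pax8 (distance 0.041, difference 0.11), to Bapx1 Gbx2 (0.054, difference -0.17) and to Nkx1-2 Plag1 (0.009, difference -0.08). With 2 values per promoter, such likeness is a description only.

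Other genes of the pathways in which Nkx factors work were described by lists. Their counts of lower calls stand beside 3.01% over bound promoters and 17.3% over promoters at or above 3, and no list was tested against them. All 7 Nkx2 genes were bound in both genotypes, with a median of 3.49 in Phc2 L307R and 4.46 in wild type, and the median of their differences was -0.09. In that list 1 gene was called lower, the cardiac factor gene Nkx2-5 at 3.49 in Phc2 L307R and 4.96 in wild type (difference -1.47, SD 0.21), and the highest difference was 0.30 at Titf1 (now Nkx2-1), a gene of lung and thyroid. Of the 12 measured genes of ventral neural tube patterning, in which Nkx6 factors act as repressors, 1 was called lower and 0 higher, with a median difference of -0.30. The called gene was Irx3 (difference -1.08, SD 0.72), and the highest was the hedgehog effector Gli1 at 0.90 (SD 0.80). Of 3 measured motor neuron factors 0 were called, from Isl2 at -0.79 to Isl1 at 0.32, with a median difference of -0.67.

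Of the 15 pancreas factors, 2 were called lower and 0 higher, with a median difference of -0.38. The lower ones were Mafa, an activator of the insulin gene in mature beta cells, at 3.15 in Phc2 L307R and 4.93 in wild type (difference -1.78, SD 0.66), and Onecut1 (difference -1.02, SD 0.68). The highest was the endocrine progenitor gene Neurog3 at 0.73 in Phc2 L307R and -0.14 in wild type. Of the 11 sclerotome and cartilage factors, 1 was called lower, the homeobox gene Barx1 at 3.90 in Phc2 L307R and 5.46 in wild type (difference -1.56, SD 0.28), and the highest was the joint ligand gene Gdf5 at 0.95. Beside these, the median difference over all 341 promoters at or above 3 in either genotype was -0.30. The fibroblast marker promoters, 12 in number, had a median of 2.56 in Phc2 L307R and 2.29 in wild type, and the 13 measured markers of other cells had 0.73 in Phc2 L307R and 0.40 in wild type.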

How the data were processed

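Agilent Feature Extraction 10.7.3.1 read the spots, and the deposited intensity values are background-subtracted and dye-normalized, per the file headers. Each deposited scanner file also gives the log10 ratio of the Cy5 to the Cy3 signal. The value tables were deposited as log10 ratios, with medians of -0.0342 and -0.0393 for Phc2 L307R and -0.056 and -0.0615 for wild type, and no source used here says how they were scaled. Scanner ratios were turned into log2 and centred on each array's median, without control or outlier-flagged spots but with saturated ones. Windows, calls and lists were computed with Python 3.11.15 and pandas 2.3.3 and were tested on simulated data. The named genes are all members, the 5 promoters nearest to Nkx6-2 and the nearest 1 to each other member, the neighbouring promoters, and the lowest and highest difference of each list; Onecut1 was added as a called gene after its value was seen. The members and lists were chosen with earlier results of these data known. A further gene is not reported here. No test was run, since each promoter has 1 array per genotype. Alternatives were the value tables, normexp (offset 50), loess, equal spread, a filter on dim probes, leaving out ratios of exactly 0, other windows and other cut-offs.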

Additional observations from a re-analysis of the deposited data

How the results depend on the processing

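Limits: 1 array per genotype and promoter, no dye swap, scan day tied to genotype, and inputs not well above background at many member probes (45 in Phc2 L307R and 20 in wild type of 144), where a ratio is less certain. No paired analysis was possible because the sample numbers name array designs that share 0 probes, and no result comes from a test. Alternatives were run for the 4 genes and the counts, not for genes of the lists. The called difference at Nkx6-2 did not change sign. The Nkx6-2 difference of -1.97 became -0.65 with normexp, -0.13 with loess, -0.42 with the window highest in Phc2 L307R (all on the other peak), -0.75 as the mean over all probes, and -3.56 in the value tables, with the window kept or chosen anew. The count of Nkx genes called lower, 1 as reported, was 4 in the value tables (window kept or chosen anew), 2 with dim probes left out, and 0 with loess, with the window highest in Phc2 L307R or as the mean over all probes. With normexp the 1 gene called was Bapx1. At a bound cut-off of 3, 2 Nkx genes were bound in Phc2 L307R and 3 in wild type, in place of 4 and 4. The median difference over the 4 genes, -0.09, became -1.71 in the value tables, -1.58 there with the window kept, 0.10 with loess, -0.54 with normexp, -0.79 with windows picked in wild type alone and -0.92 with dim probes left out. Among all promoters, 271 were lower, against 733 in the value tables, 169 with dim probes left out, 107 with windows of 5, 90 and 467 with windows picked in Phc2 L307R alone and in wild type alone, 424 with arrays scaled to the same spread, 12 as the mean over all probes and 1212 with a 1.5-fold rule. The 148 higher promoters became 52 in the value tables, 29 with dim probes left out, 46 with windows of 5, 295 and 32 with windows picked in Phc2 L307R alone and in wild type alone, 2 as the mean over all probes, 574 with the 1.5-fold rule and 11 with normexp. Except where the other peak was chosen, the cause of these shifts was not tested. Of 100 comparisons of main results with an alternative, the other 69 moved by less than the SD over window probes or by at most 1.5 times the count, and for the median over genes that SD is of single probes, so it is a loose bound.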

Other observations

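The stretch named Nkx1-2-2310007H09Rik begins 83 bp beyond the last Nkx1-2 probe and was kept out of the 4 genes because its name covers a pair of genes. Its 34 probes were mostly lower in Phc2 L307R, 28 of 34, with 3 lower by at least 1. Its window read 0.64 (SD 0.20) in Phc2 L307R and 1.38 (SD 0.39) in wild type, a difference of -0.74 (SD 0.21), under the size rule. Of its probes, 2 reached 1 in Phc2 L307R and 8 in wild type.

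Promoters next to the Nkx genes in file coordinates were not called in either direction. Next to Nkx6-2, Inpp5a, which encodes an inositol phosphatase, lay 188839 bp away and read 0.72 in Phc2 L307R and 0.63 in wild type, and Kndc1 lay 301794 bp away and read 0.40 in Phc2 L307R and 0.02 in wild type. Both Nkx6-2 neighbours were therefore unbound in each genotype. Next to Nkx6-1, A230097K15Rik differed by -0.59 (SD 0.36) and Cds1 by -0.18 (SD 0.56). Next to Bapx1, Rab28 differed by -0.57 (SD 0.99) and Cpeb2 by 0.04 (SD 0.25). Oat, the ornithine aminotransferase gene next to Nkx1-2, read 1.70 in Phc2 L307R and 2.24 in wild type.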
